A study of Mus musculus with 2 samples.

Results

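The RUNX factor genes are the 3 genes of the DNA-binding RUNX proteins, Runx1, Runx2 and Runx3, and Cbfb, the gene of their shared partner. They were chosen by name, with earlier results of these data known, and are 4 of 21627 RefSeq protein-coding genes on the autosomes and chromosome X. IRF4, an interferon regulatory factor of B cells and plasma cells, was mapped by ChIP-seq (sequencing of immunoprecipitated chromatin) in CH12.LX, an immortalized B-cell lymphoma line from a female mouse of strain B10.H-2aH-4bp/Wts. The samples form 1 group of 2 biological replicates, both precipitated with an antibody to IRF4, with no treatment named. The labels do not say whether the replicates came from separate cultures, all values describe 1 cell line, the read depth is unknown, and control libraries were not analysed here. A peak gives a place where fragments were enriched and says nothing of how much RNA a gene makes.

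RUNX proteins bind DNA as heterodimers with CBFB, which does not touch the DNA itself but raises the affinity of its partner. RUNX1 is needed for the formation of blood stem cells and acts in early B cells, RUNX2 directs the formation of bone, and RUNX3 acts in cytotoxic T cells and in the switch to immunoglobulin A. Each of the 3 RUNX genes is transcribed from a distal promoter, used for the longest transcripts, and from a proximal promoter farther into the gene. IRF4 has low affinity for DNA on its own and binds together with other factors, with the ETS proteins PU.1 or Spi-B at the ETS-IRF element (EICE) and with BATF and JUN proteins at the AP-1-IRF element (AICE).

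The distal promoters of the 3 RUNX genes share a pair of AACCACA, the letters that RUNX proteins themselves bind. They are shown because IRF4 summits lay near those of Runx1 and Runx3 and not near that of Runx2. The RefSeq sequences (GRCm38.p6, strand of the gene, 5′ to 3′) have the longest stretch shared by all 3 in capitals:
Runx1 distal promoter (chr16:92826025-92826054, minus strand): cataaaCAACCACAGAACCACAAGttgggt
Runx2 distal promoter (chr17:44814583-44814612, minus strand): cacaaaCAACCACAGAACCACAAGtgcggt
Runx3 distal promoter (chr4:135120503-135120532, plus strand): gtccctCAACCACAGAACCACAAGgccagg
The shared stretch of 18 bases was found on either strand in 4 of 32851 promoter windows of 300 bp in the RefSeq table (0.012%). Besides the 3 windows it was read from, it was in that of Gm16225, a noncoding gene that starts beside Runx3 on the other strand and whose window overlaps the one of Runx3. The single site AACCACA was in 5.27% of all windows. The stretch began 26 bp downstream of the RefSeq start in Runx1, 21 bp downstream in Runx2 and 136 bp upstream in Runx3. The windows at the proximal starts of Runx1 and Runx3 and the window of Cbfb held no AACCACA. The window at Runx2 held AACCACA at 3 places on either strand, 1 more than those of Runx1 and Runx3. None of the 6 windows held an EICE, an AICE or an AP-1 site in the letters searched. The window of Cbfb held 1 match to the PU.1 site GAGGAAGT, and no other of these windows held it.

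All 4 genes had IRF4 summits, but Runx1, Runx2 and Runx3 had many and Cbfb few. Peaks came from the depositors' optimal list, made from both replicates with the irreproducible discovery rate (IDR), which holds 44058 peaks on mm10. A summit was given to a gene when it lay in the RefSeq gene body or within 10 kb of either end. Runx1 had 20 summits, Runx2 had 18, Runx3 had 18 and Cbfb had 3. At least 1 such summit was found at 62.3% of all protein-coding genes, so having a summit was common. At least 18 summits were found at 114 genes, 0.527% of all. The signal, the strength the depositors' peak caller gave a peak on a scale that is not stated, reached 100 or more at Runx1, Runx2 and Runx3 and not at Cbfb. This occurred at 15.3% of all genes.

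**Figure D1:**
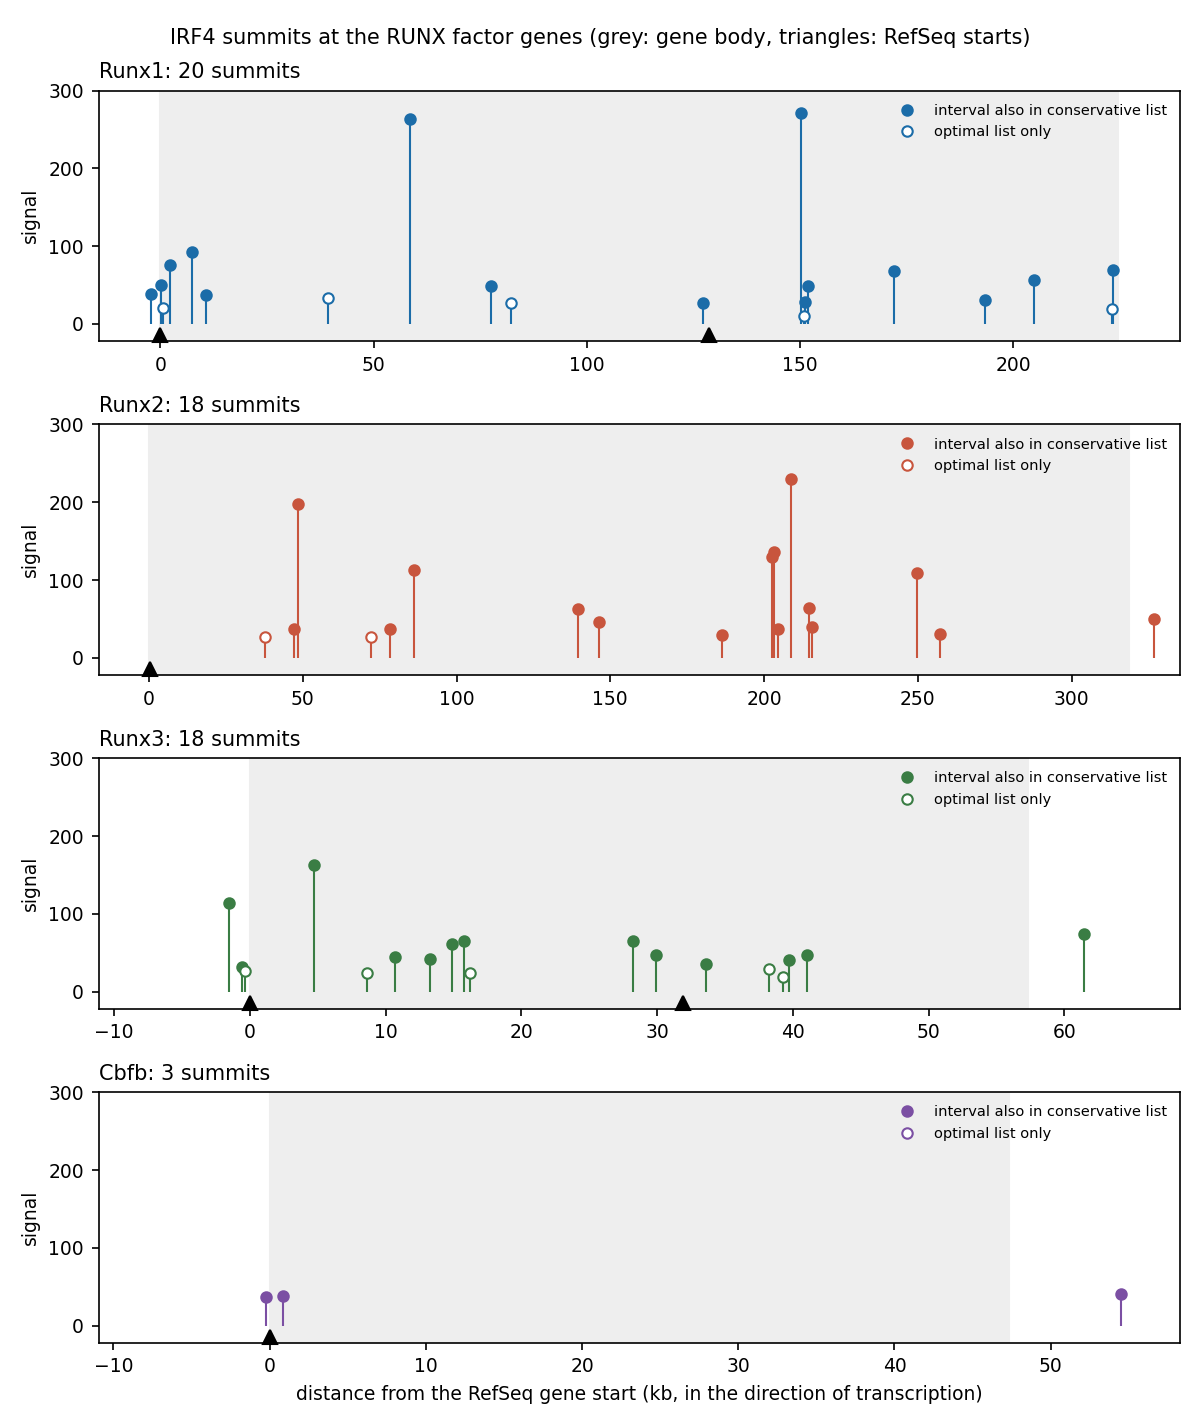
IRF4 summits of the optimal list at the 4 genes, with the distance from the RefSeq gene start in kb on the x axis and the signal on the y axis, and each point a peak. Runx1 holds 2 summits far above its others (263.8 and 271). Runx2 has a group from 202.5 to 215.5 kb and none within 37572 bp of its RefSeq start. Runx3 has summits from 1.6 kb upstream of its start to 41.1 kb, with none between 16.2 and 28.2 kb. The rest of its body holds none. Cbfb has 3 summits below 41.

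By number of summits Runx1, Runx2 and Runx3 were above 99.6%, 99.5% and 99.5% of all genes, and per length Runx1 and Runx2 stood lower. Runx3, with a body of 57346 bp, had 23.3 summits per 100 kb of body and flanks, above 98.8% of protein-coding genes and above 99.9% of those with a body of 50 kb or more. Runx1 (224609 bp) had 8.18 per 100 kb, above 83.6% of all genes and 93.9% of the long ones. Runx2 (318811 bp) had 5.31, above 72.6% of all genes and 84.6% of the long ones. Cbfb (47316 bp) had 4.46, above 68.0% of all genes. The median gene had 2.34. Chromosome 16, where Runx1 lies, carried 23.6 optimal peaks per Mb, against 16.2 on chromosome 4 (Runx3), 18.9 on chromosome 17 (Runx2) and 15.4 on chromosome 8 (Cbfb). Against the genes of its own chromosome, Runx1 was above 77.9% and Runx3 above 99.4%. The part of the chromosome in these values was not tested.

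**Figure D2:**
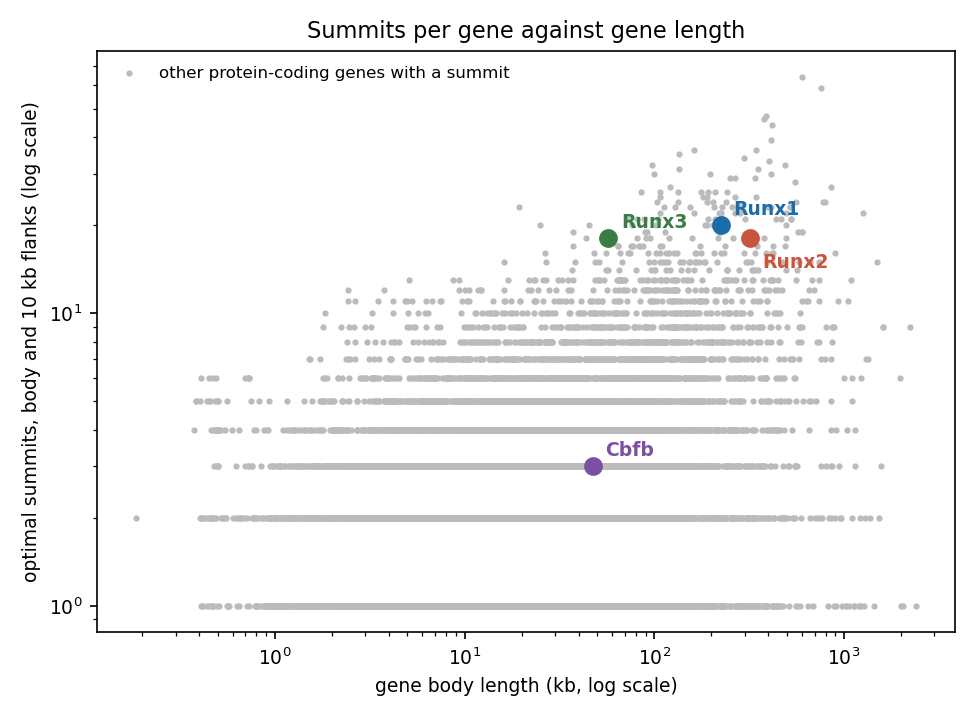
Number of optimal summits per gene (y axis, log scale) against gene body length in kb (x axis, log scale), with each grey point a protein-coding gene that has a summit. Runx3, with 18 summits in 57346 bp, stands near the upper edge for its length, Runx1 and Runx2 are high among longer genes, and Cbfb with 3 lies among the other genes.

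The genes most like Runx1 and Runx3 were those with the smallest log2 difference in summits per 100 kb among protein-coding genes of like length (179.7 to 280.8 kb for Runx1, 45.9 to 71.7 kb for Runx3). For Runx1 they were Phlpp1 (20 summits, 8.25 per 100 kb), Dock10 (23, 8.28) and Atxn7l1 (20, 8.02). Of the 522 other genes of that length, 26 had more summits per 100 kb than Runx1, and the median count was 3. For Runx3 they were Slc5a10 (16 summits, 23.5 per 100 kb), Rab37 (21, 23.0) and Gpr55 (19, 24.2). Slc5a10 and Rab37 lie on chromosome 11, which carried 39.1 optimal peaks per Mb, the highest value of the chromosomes counted. Of the 1820 other genes of the length of Runx3, 2 had more summits per 100 kb.

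Runx1 had its strongest binding deep inside the gene. The highest of its 20 signals were 271.0, at 150.2 kb from the gene start (chr16:92675774-92675967), and 263.8, at 58.5 kb (chr16:92767460-92767689). They were above 98.9% and 98.8% of optimal peaks. Replicate 1 gave 124.3 at the first and 115.0 at the second, and replicate 2 gave 146.4 and 148.7. The other 18 summits ran from 9.61 to 92.98. Near the distal promoter lay a group of 6 summits between 2122 bp upstream and 10.8 kb downstream of the start, with signals of 38.7, 49.98, 20.97, 76.0, 92.98 and 37.1 in that order. The 4 summits from 150.2 to 151.8 kb formed a further group, in which the peak of 271.0 was followed by signals of 9.61, 27.9 and 49.4. The summits with signals of 9.61 and 27.9 lay 199 bp apart, so they need not be separate sites. At the far end a summit of 69.0 lay at 223.4 kb, with a weaker one of 19.2 again 199 bp away.

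The sequences under the strongest Runx1 peaks were read on mm9, the build of the genome in use, from a separate list of 27671 peaks. Signals of that list are on another scale than those on mm10. The windows are given on the plus strand, 50 bases to either side of the summit, with motif matches in capitals:
Runx1 intron 4, 150.2 kb from the start (chr16:92676062-92676162, mm9, signal 574.7): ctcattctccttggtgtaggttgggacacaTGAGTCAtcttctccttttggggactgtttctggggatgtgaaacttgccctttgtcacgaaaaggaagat
Runx1 intron 2, 58.5 kb from the start (chr16:92767752-92767852, mm9, signal 439.2): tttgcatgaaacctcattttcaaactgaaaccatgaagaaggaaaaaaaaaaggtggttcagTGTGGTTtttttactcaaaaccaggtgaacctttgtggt
Runx1 intron 2, 94.9 kb from the start (chr16:92731395-92731495, mm9, signal 44.3): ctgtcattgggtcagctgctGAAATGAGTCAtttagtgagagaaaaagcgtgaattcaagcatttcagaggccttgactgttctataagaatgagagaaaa
Introns are numbered along the longest GENCODE transcript with an intron at the summit. The strongest peak held an AP-1 site (TGANTCA). The next held the single RUNX match within 50 bp of the mm9 summits of the 4 genes, in the reverse form TGTGGTT. Within 100 bp, 2 of the 42 summits had a match. The third peak, whose signal was above 8.18% of the list, held the adjoining AICE (GAAA directly before TGANTCA), and the optimal mm10 list had no summit between 82.2 and 127.3 kb. Of the 15 mm9 peaks at Runx1, 7 lay in intron 2, all of them upstream of the proximal start.

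Runx2, the bone factor, was bound away from its distal promoter. Its 18 summits began 37.7 kb into the gene, and the widest gap between neighbouring summits was 69474 bp. The strongest signal was 230.0, at 208.9 kb (chr17:44605851-44606021), with 97.2 in replicate 1 and 130.9 in replicate 2. It belonged to a group of 6 summits between 202.5 and 215.5 kb, with signals of 129.1, 135.9, 37.7, 230.0, 63.6 and 39.5 along the gene. The second strongest signal, 197.7, was at 48.3 kb (91.1 and 112.1 in the replicates), and summits of 112.3 and 109.6 lay at 86.1 and 249.8 kb. Runx2 had 6 summits of 100 or more, against 2 at Runx1 and 2 at Runx3. The remaining 9 summits ran from 26.8 to 62.8. The lowest, 26.8 at 37.7 kb, lay 111 bp from the start of Supt3, the gene of a transcription cofactor subunit, which overlaps Runx2 on the other strand, so it may belong to either gene. Replicate 2 had a summit of 33.6 there, and replicate 1 had none within 100 bp.

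The strongest Runx2 peak on mm9 lay in exonic sequence that is not coding in any GENCODE transcript of the gene, so only the AP-1 site is shown, beside the peak with the gapped form of the AICE:
Runx2 exon, 208.9 kb from the start (chr17:44742882-44742908, mm9, signal 377.8): actcttagaaTGACTCAggattcaaat
Runx2 intron 3, 139.5 kb from the start (chr17:44812158-44812258, mm9, signal 88.5): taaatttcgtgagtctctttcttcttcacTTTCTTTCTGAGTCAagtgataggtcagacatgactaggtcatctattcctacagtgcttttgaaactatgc
The capitals of the second window are the AICE with a gap of 4 bases between TTTC and TGANTCA. Of the 14 mm9 peaks at Runx2, 7 lay in intron 5.

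Runx3 had summits of moderate strength from 1.6 kb upstream of its start to 41.1 kb into its body. Its strongest signal was 162.8, at 4.7 kb (chr4:135125352-135125436), with 70.9 and 91.5 in the replicates. The next was 113.7, 1.6 kb upstream of the start (chr4:135118894-135119233), with 47.1 and 65.4. All other 16 summits had signals from 19.5 to 74.2. The 3 summits upstream of the start lay nearer to the start of Gm16225 (1312, 326 and 104 bp), so each may belong to either gene. Of the 18 summits, 8 lay within 1 kb of another optimal summit, against 8 of 20 at Runx1, 4 of 18 at Runx2 and 0 of 3 at Cbfb. The share over all optimal peaks was not counted. The summits at 14.9, 15.8 and 16.2 kb had signals of 61.7, 65.3 and 24.2, and those at 38.2, 39.3, 39.7 and 41.1 kb had 29.2, 19.5, 40.9 and 47.6. The widest gap, 20406 bp, covered the last part of the body, and the 1 summit beyond it, at 61.5 kb and outside the gene, had a signal of 74.2. On mm9, 6 of the 12 peaks lay in intron 1, all of them upstream of the proximal start. The strongest held the EICE (GGAA and GAAA with 2 bases between them) on the reverse strand, in capitals:
Runx3 intron 1, 4.7 kb from the start (chr4:134681222-134681322, mm9, signal 217.5): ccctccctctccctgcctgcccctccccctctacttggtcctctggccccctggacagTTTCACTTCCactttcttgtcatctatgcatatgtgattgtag
It was the single EICE within 50 bp of the mm9 summits of the 4 genes.

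Cbfb, whose protein partners all RUNX factors, had 3 summits of nearly equal signal. They were 36.7 at 240 bp upstream of the start, 38.7 at 846 bp downstream and 40.4 at 54.5 kb, 7.2 kb past the end of the gene. The last lay 1 bp from the RefSeq start of D230025D16Rik, the next gene, so 2 summits can be given to Cbfb alone. In the replicates the upstream summit had 19.3 and 19.9, and the one at 846 bp had 15.0 and 28.5. No summit was found in the remaining body. The mm9 list held 1 peak at Cbfb, 853 bp from the start and in an intron. Its window is GC-rich and held none of the motifs searched:
Cbfb intron, 0.9 kb from the start (chr8:107695377-107695477, mm9, signal 65.0): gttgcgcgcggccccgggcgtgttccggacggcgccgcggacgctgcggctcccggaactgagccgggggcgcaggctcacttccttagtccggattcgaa

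The starts of the genes differed in how near a summit lay. An optimal summit was within 500 bp of the distal start of Runx1 (40 bp, signal 49.98), of the distal start of Runx3 (373 bp upstream, 27.1) and of the start of Cbfb (240 bp upstream, 36.7). A summit this near to any start was found at 31.4% of the 17273 protein-coding genes with a start in the RefSeq table. The summit at Runx3 lay nearer to the start of Gm16225 (104 bp), so it may belong to either gene. It was above 18.9% of optimal peaks and was not in the shorter conservative list, which held the summits at Runx1 and Cbfb. The proximal starts of Runx1, 128745 bp into the gene, and of Runx3, 31900 bp into it, had their nearest optimal summits 1462 and 1700 bp away, with signals of 26.9 and 36.0. Those 2 summits were both in the conservative list. A summit at the first start and not at the last was found at 155 of 802 protein-coding genes with starts at least 10 kb apart (19.3%). The reverse was found at 88 (11.0%).

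Weaker signal was present at the proximal starts in the relaxed lists of each replicate, which hold peaks and background. At the proximal start of Runx1 the strongest summit within 500 bp reached 12.3 and 11.3 in replicates 1 and 2, against 18.1 and 36.0 at the distal start. At the proximal start of Runx3 the values were 6.40 and 14.7, against 11.0 and 17.2 at the distal start. The distal start was higher in both replicates for both genes, with the narrowest margin in replicate 2 at Runx3. The summits compared differed between the replicates at every one of these starts. In replicates 1 and 2 they lay at 90 and -85 bp from the distal start of Runx1, with negative values upstream. At the distal start of Runx3 they lay at 90 and -373 bp, and the latter is the place nearer to the start of Gm16225. The values therefore do not show a distal site shared by both replicates. At the distal start of Runx2 neither replicate listed a summit within 500 bp, and the pooled list held 1 with a signal of 8.14 at rank 214923 of 300000. The RefSeq table gives Runx2 no proximal start. On mm9, GENCODE places starts of Runx2 78.1 kb into the gene, and a peak of signal 45.3 lay 127 bp from them, while the nearest peak to the distal start was 48309 bp away. An optimal mm10 summit at 78.3 kb had a signal of 37.2, with 23.5 and 16.3 in the replicates.

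**Figure D3:**
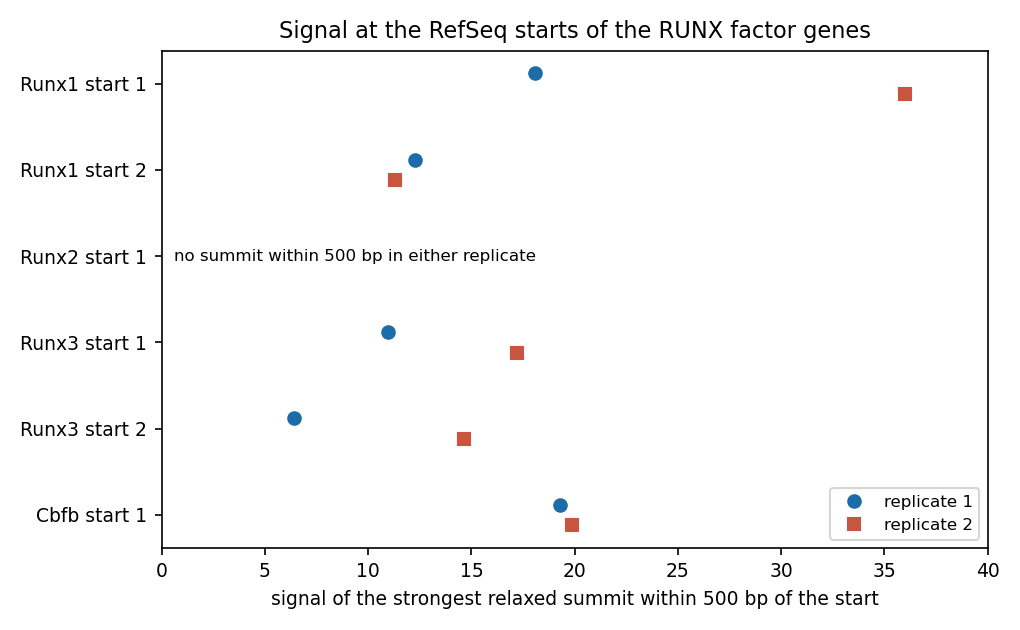
Signal of the strongest summit within 500 bp of each RefSeq start in the relaxed list of each replicate, with 1 row per start (start 1 is the distal one) and 1 point per replicate. The distal start of Runx1 has the highest replicate 2 value (36.0), and the start of Runx2 has no point. The proximal starts of Runx1 and Runx3 lie below the distal ones in both replicates. At the distal and the proximal starts of both genes the summits differ between the replicates.

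The ends of Runx1 and Runx3 were compared by giving each summit to the nearer end of the body. At Runx1 10 summits were nearer to the start and 10 nearer to the far end, a share of 50% (95% Wilson interval 29.9 to 70.1, which covers counting error only). Summed signals were 688.3 and 627.9, and the strongest were 263.8 and 271.0, so no imbalance was detectable. In the equally long lists of the strongest peaks of each replicate, the counts were 8 and 9 in replicate 1 and 8 and 9 in replicate 2. At Runx3 11 summits were nearer to the start and 7 nearer to the far end, 61.1% (38.6 to 79.7). Its summed signals were 662.3 and 294.1, and the strongest 162.8 and 74.2. The counts were 10 and 9 in replicate 1 and 11 and 7 in replicate 2, and 63.3% and 68.9% of the summed signal lay towards the start. Of the summits nearer to the start of Runx3, 3 lay upstream and nearer to the start of Gm16225. With no flanks the share of the count at Runx3 was 57.1%. Peaks of a locus are not independent, and the interval for the count at Runx3 includes 50%. The share by this division over all genes was not counted.

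Summits within 10 kb of an end, inside or outside the gene, were also counted. Runx1 had 5 summits there at the start and 2 at the far end, 71.4% (35.9 to 91.8), an interval that includes 50%. Runx3 had 5 and 1, 83.3% (43.6 to 97.0), and 3 of the 5 lay upstream and nearer to the start of Gm16225. Runx2 had none and 1, and Cbfb had 2 and 1. In each replicate alone the counts for Runx1 were 4 and 1, and those for Runx3 were 5 and 2 in replicate 1 and 5 and 1 in replicate 2. Over the 3863 genes with a body of 50 kb or more and a known strand, 3854 summits lay at the start and 1911 at the far end. So 66.9% were at the start, within the intervals of both genes. Those intervals are wide and treat the summits of a locus as independent, which they are not. The 2 summits at the far end of Runx1 lay 199 bp apart, so they need not be separate sites. More summits at the start were found at 1503 of these genes (38.9%), more at the far end at 600 and equal numbers at 1760. Of these genes 112 had 5 or more at the start (2.90%).

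In both replicates the same 5 summits of the 4 genes had the highest signals, those at 58.5 and 150.2 kb of Runx1, at 48.3 and 208.9 kb of Runx2 and at 4.7 kb of Runx3. Of the 59 summits, 46 had a summit of both replicates within 100 bp (78.0%), against 85.4% of all optimal peaks. Replicate 2 was higher at 36 of the 46 and replicate 1 at 10. The median log2 ratio of replicate 2 to replicate 1 was 0.43 with an SD of 0.59, against 0.53 and 0.66 over the 37635 matched optimal peaks, so replicate 2 ran higher in general. By gene the medians were 0.51 at Runx1, 0.43 at Runx2, 0.39 at Runx3 and 0.49 at Cbfb. The largest ratios were 1.65, at the weak Runx1 summit at 223.2 kb (4.62 and 14.5), and 1.57, at the Runx3 summit at 13.2 kb (10.8 and 32.0). The lowest was -0.86, at the Runx1 summit at 77.6 kb (31.1 and 17.2). At the 2 strongest Runx1 summits the ratios were 0.24 and 0.37. Spearman's correlation over the 46 was 0.729, given as a description since they share the libraries and were chosen by IDR from them.

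**Figure D4:**
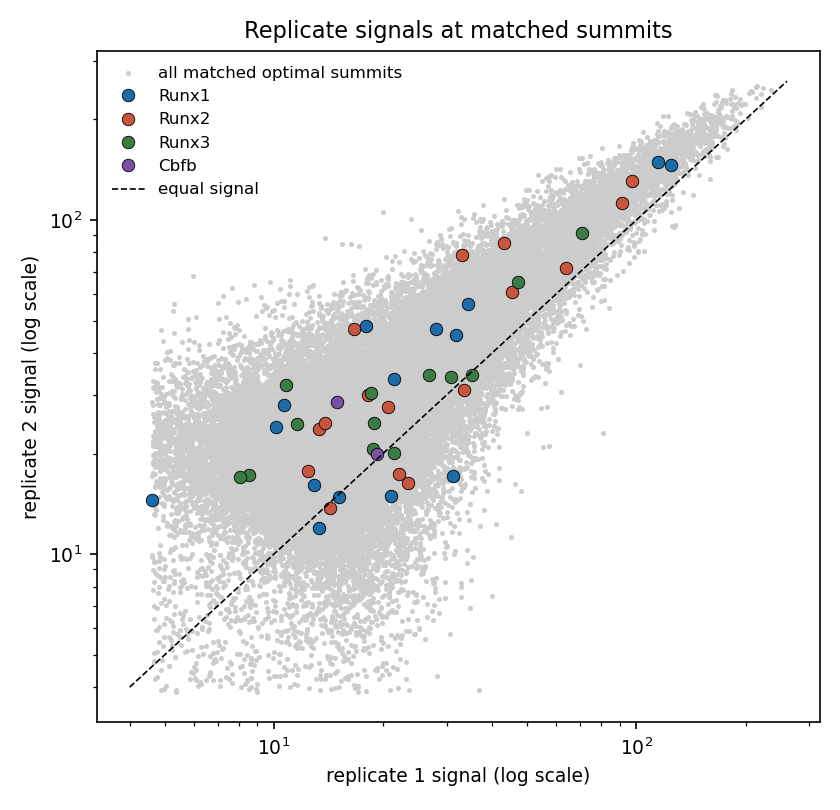
Signal in replicate 1 (x axis, log scale) and replicate 2 (y axis, log scale) at optimal summits matched in both within 100 bp, with the 46 summits of the 4 genes in colour, all 37635 in grey and equal signal as a dashed line. Of the 46 points 36 lie above the line, and the strongest ones of Runx1, Runx2 and Runx3 lie close to it.

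Of the 59 optimal summits, 79.7% were the same intervals as in the shorter conservative IDR list (35879 peaks), against 72.3% of all optimal peaks. The conservative list had 16 summits at Runx1, 17 at Runx2, 14 at Runx3 and 4 at Cbfb. At Cbfb this is more than the 3 of the optimal list, so the conservative list is not a plain subset of it. At least 1 was found at 57.4% of all genes. The summits missing from it were weak, with signals from 9.61 to 33.4 at Runx1, 26.8 and 26.96 at Runx2, and 19.5 to 29.2 at Runx3. The median signal over the 59 was 42.4, close to the 41.4 of all optimal peaks, and 16.9% reached 100 against 12.9%.

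Motifs were searched on both strands within 50 bp of the 42 mm9 summits at the 4 genes. The AP-1 site was in 12 of them, 28.6% (17.2 to 43.6), against 16% of all 27671. It was in 6 of the 15 peaks at Runx1 (40%, 19.8 to 64.3), in 6 of the 14 at Runx2 (42.9%, 21.4 to 67.4) and in none of the 12 at Runx3, where the upper bound was 24.2%. The intervals of Runx3 and of Runx1 and Runx2 overlap, peaks of a locus are not independent, and the difference was not tested. EICE was in 1 of 42 (2.38%, 0.422 to 12.3) against 8.68% of all. ISRE, 2 copies of GAAA with 2 bases between them, was in 1, at Runx2, against 5.79% of all. AICE in either form was in 2 (4.76%) against 2.23%, and every AICE holds an AP-1 site that is counted above. The octamer ATGCAAAT, bound by Oct factors, was in 3 (7.14%) against 2.61%. The PU.1 site GAGGAAGT was in none, with an upper bound of 8.38%, against 4.93%. The RUNX site was in 1 of 42 against 5.79%. At least 1 of the EICE, ISRE and AICE was in 4 of 42 (9.52%, 3.77 to 22.1) against 16%, which lies within the interval. Of the 42 summits, 34 were in introns, 3 in exonic sequence that is not coding and 5 outside the genes.

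Proteins that work with RUNX factors, and genes they control, were taken from lists chosen by textbook knowledge, with earlier results of these data known. Of 20 genes of corepressors and coactivators, 18 had a summit, against 62.3% of all genes, and 6 had one of 100 or more, against 15.3%. The strongest were at Cbfa2t3, a corepressor gene of the ETO family (279.8, 8 summits), Tle4, a Groucho corepressor gene (220.2, 13 summits), and Hipk2, a nuclear kinase gene (186.0, 8 summits). Of 18 RUNX target genes in blood cells, 14 had a summit and 4 had one of 100 or more, against 62.3% and 15.3% of all genes. The targets were led by Ebf1, a factor of early B cells (322.7, 47 summits), Bcl2, a survival gene (283.7, 26 summits), and Blk, a B-cell kinase gene (225.0, 6 summits). Of 8 RUNX2 target genes in bone, 3 had a summit, against 62.3% of all genes. These were Alpl, the gene of tissue-nonspecific alkaline phosphatase (222.5, 8 summits), Sp7, the osteoblast factor osterix (77.7, 1 summit), and Col1a1, a type I collagen gene (61.0, 2 summits). The median per 100 kb was 4.18, 7.95 and 0 in these lists, against 2.34 over all genes. Several blood target genes, Ebf1 among them, lie on chromosome 11, where the median gene had 5.86. The part of the chromosome in these medians was not tested.

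The Ikaros family, another group of lymphocyte factor genes, gave a comparison of like kind. All 5 had a summit, against 62.3% of all genes, and 4 had one of 100 or more, against 15.3%, with 52 summits in total against 59 at the RUNX factor genes. Ikzf3 had 21 summits (20.7 per 100 kb, strongest 336.8) and Ikzf1 had 21 (19.5, 158.6), near the density of Runx3. Both lie on chromosome 11, which carried 39.1 optimal peaks per Mb against 16.2 on the chromosome of Runx3. Ikzf4 had 8 (strongest 131.2), Ikzf2 had 1 (311.1) and Ikzf5 had 1 (25.6). As a check of the line, all 6 B-cell marker genes had a summit, as did 5 of 6 T-cell and 4 of 6 myeloid marker genes, against 62.3% of all genes. A summit of 100 or more was found at 4, 1 and 0 of them, and the median per 100 kb was 16.2, 8.80 and 3.51. Binding near a gene is not expression, and the labelled cell type could not be checked further with peaks.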

How the data were processed

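IRF4 ChIP-seq peaks of 2 replicates were analysed from 6 deposited narrowPeak lists. Per the deposited file descriptions, mm10 alignments with 1 further file gave relaxed lists for the replicates singly and pooled, the optimal and conservative lists were derived from these by IDR, and the mm9 list came from mm9 alignments of both replicates. Read depth is unknown, and the peak caller and aligner were not named by the sources used. The signal value of each peak is the authors', as deposited, and was used within a list or side by side between replicates. The summit was the start plus the deposited offset. No coordinates were converted between builds.

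Gene bodies (GRCm38) and 32851 starts with 300 bp windows came from RefSeq, mm9 sequence from the reference genome of that build and its transcripts from GENCODE. Summits in the body or within 10 kb were counted per gene. Replicate summits were the nearest within 100 bp. Densities divide by body plus flanks. No test between groups was possible, and all results are descriptions with 95% Wilson intervals where given. Counting was tested on simulated data. The members and the gene lists were chosen with earlier results of these data known. Named genes are the members, overlapping or adjoining genes, the 3 genes most like Runx1 and Runx3, and the 3 strongest of each cofactor, target and Ikaros list, with marker lists given as counts only; all Ikaros genes were named as a comparison family, and noncoding genes beside a summit after values were seen. The peaks with an AICE were also shown after their values were seen. All 69 entries of the 7 lists matched a gene. The alternatives were other lists, flanks, signal minimums, backgrounds and window sizes. Python 3.11.15 was used with numpy 2.4.6, pandas 2.3.3, scipy 1.17.1, matplotlib 3.10.9 and pysam 0.24.0.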

Additional observations from a re-analysis of the deposited data

How the results depend on the processing

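Of 86 alternative values computed for the counts, end shares, density percentiles, replicate ratio and motif shares, 63 stayed within the limits set (1.5 times for a count, the Wilson interval for a share or percentile, 1 SD for the ratio), 23 moved and none changed sign. All alternatives of the density percentiles were among those that moved, even a change from 98.8 to 98.2 at Runx3. With signals at or above the median of the list only, Runx1, Runx2 and Runx3 kept 10 summits each and Cbfb 0. That setting drops the weaker peaks of the whole list by design. Cbfb had 1 summit in the mm9 list and 1 with no flanks. Within 10 kb of the ends, a division added after seeing the data, the share of summits at the start was 71.4% at Runx1 and 83.3% at Runx3, on 7 and 6 summits. In the density percentiles the conservative list gave 82.9 at Runx1, 77.6 at Runx2, 98.2 at Runx3 and 80.9 at Cbfb. Among genes of 50 kb or more they were 93.9, 84.6 and 99.9 for the RUNX genes in that order. Ranked by number of summits they were 99.6, 99.5, 99.5 and 71.2 for Runx1, Runx2, Runx3 and Cbfb. Among genes of the same chromosome, also added after seeing the data, they were 77.9, 71.1, 99.4 and 64.3. Without replicate 1 or replicate 2 the counts were 17 and 17 at Runx1, 17 and 22 at Runx2, 18 and 19 at Runx3 and 3 and 3 at Cbfb, and the share nearer to the start was 47.1% at Runx1 in both cases and 61.1% and 52.6% at Runx3. No paired analysis was possible because the samples form 1 group. Depth is unknown, so a start with no summit is 1 at which none was listed.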

Other observations

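On 1 side of each of Runx1, Runx2 and Runx3, a summit of 151.8 or more lay beyond the 10 kb used above. Upstream of Runx1, 757.4 kb separate it from Setd4, the next protein-coding gene, and 27 optimal summits lay there, the strongest with a signal of 242.2 at 202.8 kb from Runx1. On the other side, the 60.2 kb before Clic6 held 1 summit (45.3). Past the end of Runx3, 3 summits lay in the 36.0 kb before Clic4. The strongest, 25.4 kb from Runx3 and nearer to Clic4, had a signal of 244.2, above every summit at Runx3 itself. Upstream of Runx3, 10 summits lay in the 183.1 kb up to Syf2. The strongest of these was the summit of 113.7 at 1.6 kb from Runx3. Downstream of Runx2, 18 summits lay in the 215.8 kb before Clic5, with the strongest, 151.8, at 19.9 kb from Runx2. The 64.9 kb between Runx2 and 4930564C03Rik held none. These counts include the summits within 10 kb of a RUNX gene given above. Chromosomes 16, 17 and 4 carried 23.6, 18.9 and 16.2 optimal peaks per Mb, and whether these stretches differ from that was not tested. Which gene such distant summits belong to cannot be read from peaks.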
